A study of Mus musculus with 6 samples.

Results

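Splicing factors and the protein genes of small nuclear ribonucleoproteins (snRNPs) were examined in the lungs of mice without Carm1, an arginine methyltransferase, and in wild-type lungs. The genes were chosen by name alone: every probe set of the array with 1 gene symbol that begins with Srsf or Sfrs, Hnrnp or Hnrp, Sf3a or Sf3b, Snrp, Prpf or U2af followed by its number or letter was taken. This gave 172 of the 45101 probe sets, which stand for 61 genes. A probe set is a group of short oligonucleotides, mostly against the 3' part of a transcript, that gives 1 signal per array. Of the 172 probe sets, 159 were bright enough to be tested, and these covered 59 genes. The 13 that were not included the only ones of Snrpn and Srsf12 among the 172.

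The study held 6 arrays of total lung RNA, 3 labelled Carm1 knockout, spelled CRAM1 in part of the labels, and 3 labelled wild type. The knockout labels and the study's design give embryonic day 18.5, while the wild-type labels call the tissue neonatal, so genotype and a possible age difference cannot be told apart. Strain, the kind of knockout allele, and whether lungs or litters were pooled are not given in the sources used here, and the p-values therefore measure the spread between these arrays only. Carm1 itself had signals of 814.5, 678.5 and 864.7 on the wild-type arrays and 394.9, 374 and 510.7 on the knockout arrays. Where its probe set lies relative to the deletion is not known here, so this checks the labels only in part.

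Most introns are removed by the major spliceosome, which is built from the U1, U2, U4, U5 and U6 snRNPs. Sm proteins (products of Snrpb, Snrpd3, Snrpe, Snrpf, Snrpg and their relatives) form a ring around the snRNA of all of these except U6. The SF3a and SF3b complexes belong to the U2 snRNP and hold the branch point, U2AF marks the 3' splice site, and the PRPF proteins act mainly in the U4/U6.U5 particle and the catalytic core. SR proteins and hnRNPs bind exons and introns and set which splice sites are used, often with opposite effects. Carm1 is known to methylate some splicing proteins, among them SmB (from Snrpb) and U1-C (from Snrpc). The arrays measured transcripts only, not methylation and not splicing.

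The levels of splicing genes differed little between the genotypes. At the probe set of highest mean signal for each gene, the median log2 difference of the 59 genes (knockout minus wild type) was 0.084, against 0.029 over all 12947 genes tested, with 37 genes higher and 22 lower (62.7% higher). Of all genes 54.6% were higher and 45.4% lower. Differences ran from −0.39 for Hnrnpl to 0.62 for Snrpf, and 48 of the 59 lay within 0.25 of zero on the log2 scale (81.4%, against 63.1% of all genes). Only Snrpf and Prpf31 reached 0.5 in size, which is 3.39% of the members against 13.0% of all genes. At these probe sets the 95% confidence interval of the difference, taken gene by gene, lay inside a 2-fold change in either direction for all 59 genes. For 50 it lay inside 1.5-fold. Over all genes tested these shares were 81.6% and 50.8%. Some further, dimmer probe sets had intervals that went past 2-fold, among them 1 of Hnrnpd (log2 0.47 to 1.08) and 1 of Sf3b2 (log2 −1.26 to −0.11). The members were bright, with a median signal of 3082 against 600.6 over all genes, and bright genes vary less. The 2363 genes within the members' middle range of signal had a median absolute difference of 0.14, and the 29 members there had 0.11.

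With limma's moderated test and p-values adjusted (Benjamini-Hochberg) across 27022 probe sets, 0 of the 159 member probe sets passed an adjusted p of 0.05, where 0.0296% of all probe sets did. Carm1 itself did not pass it either (log2 −0.89, limma adjusted p = 0.105). At an unadjusted p under 0.05, 19 member probe sets were higher and 6 lower, or 11.9% and 3.77%, against 7.32% and 6.31% of all probe sets. Some genes gave more than 1 of these probe sets, which are not independent. Counted by gene at the brightest probe set, 10 were higher and 3 lower (16.9% and 5.08%), against 9.14% and 7.36% of all genes. Among the 59 genes, 14 had all 3 knockout arrays above all 3 wild-type arrays and 3 had them all below (23.7% and 5.08%), against 12.6% and 10.5% of all genes. An exact permutation test of 3 against 3 arrays cannot give a p under 0.1. The split depended on the scaling of the arrays: after each array was centred on its median signal, 31 genes were higher and 28 lower. The unadjusted count of member probe sets was then 11 higher and 8 lower, with 4.64% of all probe sets higher at that level. Centring shifts all genes alike: the median of all genes went from 0.029 to −0.027 and that of the members from 0.084 to 0.027. Without knockout replicate 3, 32 genes were higher and 27 lower (54.2% higher). The median of all genes was then 0.020 and that of the members 0.033. The share of all genes that were higher is not given for median centring or without this array. The member splits under these settings therefore cannot be compared with the share of all genes in the main comparison.

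**Figure D1:**
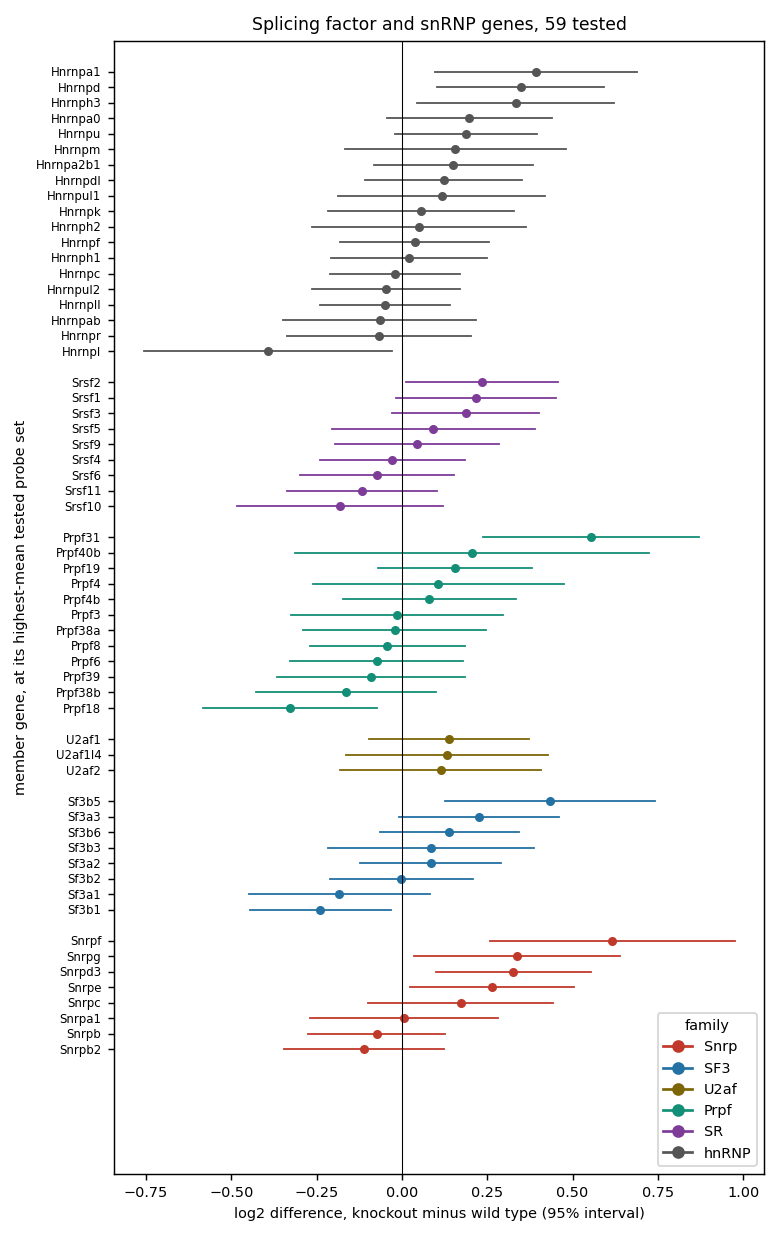
Log2 difference (knockout minus wild type, horizontal axis) of the 59 tested member genes at their highest-mean probe set, grouped by family, where points are the fitted differences and lines the 95% intervals of limma. Snrpf (0.62) and Prpf31 (0.56) lie farthest to the right and Hnrnpl (−0.39) farthest to the left.

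Among the families, the Snrp genes had the highest median difference. The 8 tested Snrp genes had a median difference of 0.22, with 6 higher and 2 lower, and a median of 0.13 without knockout replicate 3. In 4 of the 8, all of them Sm ring genes (Snrpd3, Snrpe, Snrpf and Snrpg), all knockout arrays lay above all wild-type arrays, as in 12.6% of all genes. None of the 4 passed the adjusted threshold. The 250 bases before the annotated start of these genes are shown because the groups were apart for all 4, and they were picked for that. They are from RefSeq, build GRCm38.p6, written 5' to 3' on the strand of the gene, with capitals at CCAAT (the CCAAT box) and CCGGAAG (the core of many ETS factor sites), each searched on both strands. Snrpd3 lies at chr10:75517792-75518041 on the plus strand, Snrpe at chr1:133610281-133610530 on the minus strand, Snrpf at chr10:93589659-93589908 on the minus strand and Snrpg at chr6:86371290-86371539 on the plus strand.
Snrpd3: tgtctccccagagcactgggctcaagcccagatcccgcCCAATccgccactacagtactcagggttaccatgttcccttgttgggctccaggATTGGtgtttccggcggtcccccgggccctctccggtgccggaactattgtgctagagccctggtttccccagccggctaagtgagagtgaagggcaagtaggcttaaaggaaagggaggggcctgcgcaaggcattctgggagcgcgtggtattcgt
Snrpe: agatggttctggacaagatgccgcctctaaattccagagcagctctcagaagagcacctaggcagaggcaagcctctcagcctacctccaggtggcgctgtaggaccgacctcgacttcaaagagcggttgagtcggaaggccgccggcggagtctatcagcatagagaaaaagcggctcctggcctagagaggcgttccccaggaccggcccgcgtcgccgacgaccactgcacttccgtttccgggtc
Snrpf: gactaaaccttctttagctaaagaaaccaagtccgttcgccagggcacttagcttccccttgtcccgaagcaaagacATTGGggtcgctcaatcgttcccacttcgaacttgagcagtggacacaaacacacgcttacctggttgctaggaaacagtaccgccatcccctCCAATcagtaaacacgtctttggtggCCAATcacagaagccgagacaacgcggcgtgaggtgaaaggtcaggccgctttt
Snrpg: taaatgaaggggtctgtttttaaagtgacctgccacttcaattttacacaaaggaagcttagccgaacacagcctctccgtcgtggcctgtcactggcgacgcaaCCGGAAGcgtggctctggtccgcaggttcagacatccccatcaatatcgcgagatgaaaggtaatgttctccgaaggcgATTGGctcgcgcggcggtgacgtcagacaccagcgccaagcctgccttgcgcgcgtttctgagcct
Snrpd3 held 2 CCAAT matches, Snrpf 3, and Snrpg 1 CCAAT and 1 CCGGAAG match that do not overlap, while the window of Snrpe held neither. Of all 32851 such windows, 33.8% held CCAAT and 6.91% CCGGAAG. Of the 75 windows of the 55 member genes in the table, 48% and 28% did. The matches describe the letters only.

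Snrpf encodes SmF. It had signals of 1167.9, 1260.3 and 1142 on the wild-type arrays and 1635.7, 1567.7 and 2363.3 on the knockout arrays. All 3 knockout signals were above the wild-type range and knockout replicate 3 was far above the other two. The means were 1190 ± 62.2 (SD, n = 3) and 1856 ± 441, a 1.53-fold difference (log2 0.62, SE 0.16, limma adjusted p = 0.172), which was 0.43 on the log2 scale without knockout replicate 3.

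Snrpg, encoding SmG, was measured by a pair of probe sets. The one marked by the array maker as shared between transcripts (suffix _s_at) read 14307, 12160 and 13019 in wild type and 14438, 15778 and 20024 in knockout, which separates the groups by a narrow gap. The other read 3726, 4423 and 4268 in wild type and 5964, 5335 and 8195 in knockout. Their log2 differences were 0.34 and 0.63 (limma adjusted p = 0.321 and 0.161). The first was 0.20 without knockout replicate 3, the array with the highest signal at both.

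Snrpd3, encoding SmD3, had signals of 4170, 3805 and 4340 in wild type and 5278, 4691 and 5488 in knockout, so the groups did not overlap. The difference was 1.25-fold (log2 0.33, SE 0.10, limma adjusted p = 0.230), and 2 dim probe sets of the gene were higher by 0.24 and 0.51 with overlapping groups. Snrpe, encoding SmE, read 19493, 16755 and 16497 in wild type and 20091, 20226 and 22957 in knockout, 1.20-fold apart (log2 0.26, limma adjusted p = 0.328). Wild type replicate 1 lay close under the knockouts there. These small Sm genes and Hnrnpa1 have processed pseudogenes, and which copies the probes also match was not examined here.

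The probe sets of Snrpb, the gene of the methylation substrate SmB, differed. Its brighter probe set had means of 6143 ± 363 in wild type and 5831 ± 198 in knockout (log2 −0.07, 95% interval −0.28 to 0.13), with overlapping groups. Its second probe set read 3470, 3589 and 3640 in wild type and 3932, 3893 and 4458 in knockout (log2 0.20, limma adjusted p = 0.397), without overlap, so the 2 differed in sign. Snrpc, which encodes U1-C of the U1 snRNP, had means of 3430 ± 310 and 3876 ± 511 (log2 0.17, 95% interval −0.10 to 0.44), and the difference was 0.066 without knockout replicate 3. The U2 snRNP genes Snrpa1 and Snrpb2 were at 0.0054 and −0.11 on the log2 scale at their brightest probe sets. Further tested probe sets were at 0.27 and 0.11 for Snrpa1 and at 0.13 for Snrpb2, all with overlapping groups.

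**Figure D2:**
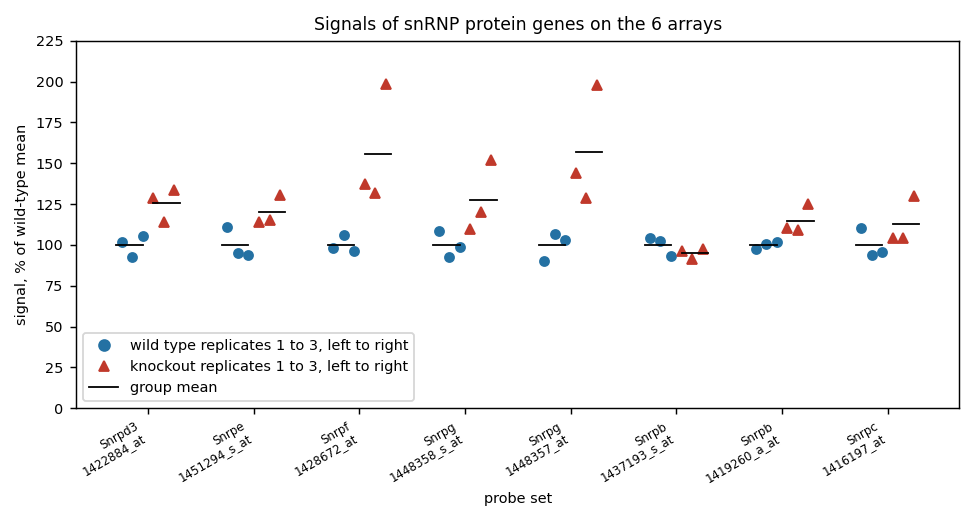
Signals of probe sets for 6 snRNP protein genes as a percentage of the wild-type mean (vertical axis, linear from 0), for probe sets with a wild-type mean of at least 500; circles are the 3 wild-type arrays, triangles the 3 knockout arrays and bars the group means. The triangles of Snrpd3, Snrpe, Snrpf and Snrpg all lie above their circles, and knockout replicate 3, the rightmost triangle, is the highest.

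Several marker lists also differed between the groups. Of the Sm ring genes, 5 were among the members, and Snrpd1 and Snrpd2 were not. The mean level of the 5 at their brightest probe sets was taken as log2 deviation from the mean over 6 arrays. It was −0.080, −0.18 and −0.18 on the wild-type arrays and 0.073, 0.040 and 0.33 on the knockout arrays. Without Snrpb, for the 4 genes picked because their groups were apart, it was −0.12, −0.24 and −0.21 against 0.097, 0.073 and 0.41, a separation fixed by that choice. Proliferation markers, of which 18 of 20 were tested and all 18 were higher in knockout, stood at −0.65, −0.22 and −0.13 in wild type and at 0.54, −0.049 and 0.51 in knockout. Knockout replicate 2 was the lowest knockout for both the Sm genes and proliferation. Wild type replicate 1 was the highest wild type for the Sm genes and the lowest for proliferation. Knockout replicate 3 was above the other knockouts for the Sm genes but level with knockout replicate 1 for proliferation. Markers of the alveolar type I cell, a flat epithelial cell, were lower in all 10 members (array means 0.17 to 0.60 in wild type and −0.67 to −0.16 in knockout). Endothelial markers were lower in 9 of 10 (0.16 to 0.28 and −0.38 to −0.11) and fibroblast and smooth muscle markers higher in 9 of 10 (−0.41 to −0.084 and 0.021 to 0.49). Of the other marker lists, immune genes were higher in 6 of 8 (median 0.41), club and ciliated cell genes in 7 of 8 (0.31) and erythroid genes in 3 of 4 (1.19), and alveolar type II genes were lower in 7 of 9 (−0.25). None of these marker genes passed the adjusted threshold with limma, and at an unadjusted p under 0.05, 9.14% of all genes were higher and 7.36% lower. At that level 16 proliferation, 4 club and ciliated, 4 fibroblast and smooth muscle, 2 immune and 2 erythroid genes were higher, and 8 type I, 7 endothelial, 3 type II and 1 fibroblast and smooth muscle genes were lower. One of these immune genes, Mcpt8, read 34.3, 21.2 and 27.4 in wild type, under the limit of 59.7 for testing. It was tested only because of its knockout signals (181.4, 123.3 and 147.4). The 2 lower immune genes were Ptprc (−0.11) and Cd68 (−0.26). The part of the marker differences in the Sm result was not tested. In bulk lung, more cells of a type and more RNA per cell cannot be told apart.

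Other measures of the arrays were as follows. The lung markers Sftpc, Sftpb, Ager and Scgb1a1 were bright in both groups, with means of 50143 and 52420 for Sftpc and 34088 and 23063 for Ager. Knockout replicate 3 was the highest of the arrays for 27 of the 59 member genes, against 25.4% of all genes. Control RNA of bacterial origin was present on wild type replicates 1 and 3 only (median signals 609.5 and 378.5, against 4.29 to 11.4 on the other arrays), and by Xist and Y-linked transcripts each group held 1 male array, wild type replicate 3 and knockout replicate 2. Against wild type replicate 2 alone, the wild-type array without control RNA, the differences were 0.53 for Snrpf, 0.45 and 0.53 for Snrpg, 0.43 for Snrpd3 and 0.33 for Snrpe. The ratio of 3' to 5' signal, a measure of RNA integrity, was 0.80 to 0.91 for Gapdh in both groups, and for actin 1.56 to 1.66 in wild type and 1.57 to 1.75 in knockout, highest on knockout replicate 3.

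**Figure D3:**
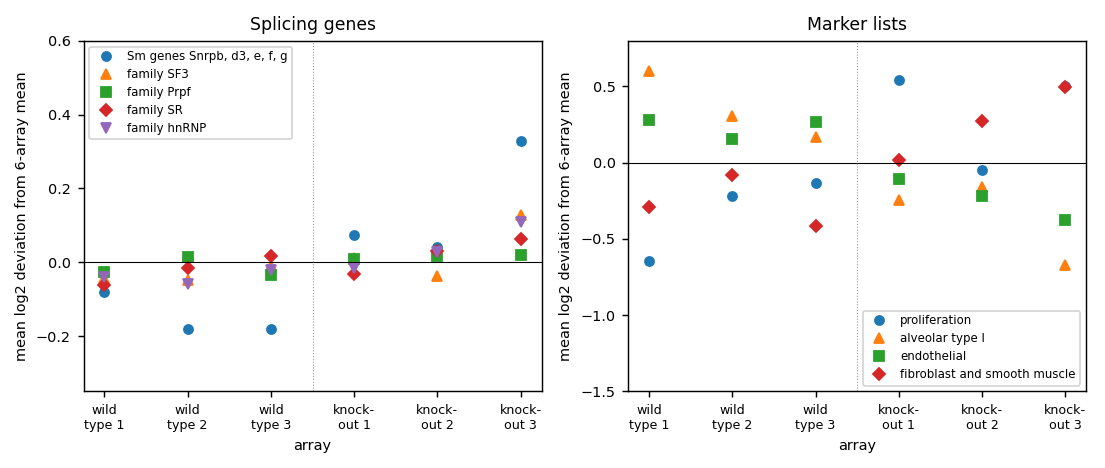
Mean log2 deviation from the 6-array mean (vertical axis) on each array, for 5 groups of splicing genes (left) and 4 marker lists (right), with different vertical scales. The 5 Sm ring genes among the members, Snrpb included, range from −0.18 to 0.33. Proliferation markers range from −0.65 to 0.54, while SF3, PRPF, SR and hnRNP genes stay between −0.063 and 0.13.

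In the U2 snRNP the SF3a and SF3b genes went both ways. Of 8 genes 5 were higher and 3 lower, with a median of 0.084 (0.016 if knockout replicate 3 is left out). Sf3b5, which encodes a small SF3b subunit, had signals of 3749, 3136 and 4012 in wild type and 4784, 4259 and 5712 in knockout, without overlap (log2 0.43, SE 0.14, limma adjusted p = 0.237). Its second probe set differed by 0.19 with overlapping groups. Sf3b1, the large subunit that clamps the branch point, read 6273, 5796 and 5838 in wild type and 5280, 5206 and 4697 in knockout (log2 −0.24, SE 0.09, limma adjusted p = 0.305). The knockout signals were all lower at that probe set, but its 3 further probe sets differed by −0.21, −0.026 and 0.068 and overlapped. Sf3a3 was at 0.23, Sf3b6, whose product touches the branch point adenosine, at 0.14 and Sf3a1 at −0.18. Sf3a2 and Sf3b3 were both at 0.084.

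Sf3b2 encodes the SF3b subunit that binds near the branch point, and was the member with 2 probe sets of opposite sign that each had an unadjusted p under 0.05. Its brightest 2 probe sets had differences of −0.0022 and 6e-04. A dim one read 146.6, 116.4 and 151.3 in wild type and 84.4, 84.5 and 87 in knockout (log2 −0.69, limma adjusted p = 0.297). Probe sets of middle signal were higher in knockout by 0.29 and 0.47 (limma adjusted p = 0.335 and 0.353), the second of them by 0.30 without wild type replicate 2. Against wild type replicate 2 alone these 3 differences were −0.45, 0.18 and 0.82. The brightest probe set gave a 95% interval of −0.21 to 0.21.

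All 3 U2AF genes were slightly higher at their only member probe sets, with intervals that include 0. U2af1, whose product reads the AG at the 3' splice site, was at 3742 ± 352 and 4112 ± 280 (log2 0.14), U2af2, the subunit on the polypyrimidine tract, at 1391 ± 167 and 1504 ± 174 (log2 0.11), and the U2af1 relative U2af1l4 at 775 ± 104 and 845 ± 31.2 (log2 0.13). The groups overlapped for each, and the differences depended on single arrays. When an array was left out they ran from 0.082 (without knockout replicate 3) to 0.21 for U2af1, from 0.033 (without knockout replicate 3) to 0.21 for U2af2 and from 0.030 (without wild type replicate 2) to 0.22 for U2af1l4.

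Among 12 PRPF genes the median difference was −0.017, with 5 higher and 7 lower, but 0.0079 without wild type replicate 2, 0.021 without knockout replicate 2 and −0.048 without knockout replicate 3. Prpf31, a tri-snRNP protein that binds U4 snRNA and is mutated in retinitis pigmentosa, had signals of 422.7, 450.5 and 459.1 in wild type and 633.9, 584.9 and 748.1 in knockout. The groups were well apart, 1.47-fold (log2 0.56, SE 0.14, limma adjusted p = 0.165), and the difference was 0.53 against wild type replicate 2 alone. Its second, dimmer probe set differed by 0.15 with overlapping groups. Prpf18, a factor of the step that joins exons, read 1470, 1244 and 1301 in wild type and 1138, 1053 and 1003 in knockout. All knockout signals were lower, to 79.7% of wild type (log2 −0.33, limma adjusted p = 0.269). Prpf8, at the catalytic centre of the spliceosome, was at 2899 ± 164 and 2818 ± 230, with a knockout level between 82.9% and 114% of wild type (95% interval). Prpf19, the ubiquitin ligase of the complex that activates the spliceosome, was higher at all 4 tested probe sets, by 0.16 to 0.39, with overlapping groups, and the brightest by 0.088 without knockout replicate 3. The rule also took Prpf38b (−0.16) and the U1-associated Prpf40b (0.21, but −0.055 against wild type replicate 2 alone).

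The remaining PRPF genes lay close to zero at their brightest probe sets. Prpf3 and Prpf4, partners in the U4/U6 particle, were at −0.014 and 0.11, and Prpf6, which bridges the tri-snRNP, was at −0.074. The kinase gene Prpf4b was at 0.081, but its second probe set read 1541, 1740 and 1798 in wild type and 1204, 1377 and 1520 in knockout (log2 −0.31, limma adjusted p = 0.312). Prpf39, of the U1 snRNP, was at −0.09, and its second probe set read 514.2, 574 and 581.9 in wild type and 716, 716.1 and 682.2 in knockout (log2 0.34, limma adjusted p = 0.274). At both second probe sets the groups were apart, in the direction opposite to the brightest one.

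The SR genes differed little. All 9 tested lay within 0.25 of zero, with a median of 0.044, but −0.012 after median centring and without wild type replicate 2. It was −0.030 when knockout replicate 3 was left out. Those of the classical SR proteins Srsf1, Srsf2 and Srsf3 had all knockout arrays above all wild-type arrays at their brightest probe sets, by small amounts. They were 3 of the 9 (33.3%), against 12.6% of all genes. At an unadjusted p under 0.05 with limma, 1 of the 9 was higher (11.1%), against 9.14% of all genes. Srsf1, a founding member of the family, read 7991, 8504 and 8817 in wild type and 9224, 9201 and 11067 in knockout (log2 0.22, limma adjusted p = 0.404), and 5 of its 6 tested probe sets were higher. Without knockout replicate 3 its difference was 0.13. Srsf2 had means of 5309 ± 523 and 6225 ± 54.0 (log2 0.23, limma adjusted p = 0.345), with 4 of 4 probe sets higher, and its difference was 0.15 without wild type replicate 1. Srsf3, the smallest SR protein, had means of 9168 ± 453 and 10447 ± 804 (log2 0.19, limma adjusted p = 0.431), with 6 of 6 higher.

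The genes of Srsf10 and Srsf11 were on the other side. Srsf11 was lower at 4 of 4 probe sets, by 0.0023 to 0.26. Srsf10, which turns into a splicing repressor when it loses its phosphates, had differences of −0.18, 0.019, 0.11 and −0.49 at its 4 probe sets in order of brightness. The dimmest of the 4 read 914.2, 1202 and 1152 in wild type and 853.4, 751.7 and 709.9 in knockout (limma adjusted p = 0.203), so all knockout signals were lower there, whereas the groups overlapped at the other 3. Transcripts of many SR genes exist in forms with retained introns or extra exons that lead to decay, and which form each probe set reads is not known here. The other SR genes, Srsf4, Srsf5, Srsf6 and Srsf9, were at −0.028, 0.092, −0.073 and 0.044, each with overlapping groups.

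Among the 19 hnRNP genes 13 were higher and 6 lower, with a median of 0.055, or −0.0015 after median centring and 0.10 without wild type replicate 3. Hnrnpd, encoding AUF1, which binds AU-rich elements and directs mRNA decay, was higher at both tested probe sets. The brighter one read 4010, 3676 and 4347 in wild type and 4737, 4909 and 5681 in knockout (log2 0.35, SE 0.11, limma adjusted p = 0.234). The other read 358.1, 315.9 and 336.2 in wild type and 591.8, 541.6 and 593 in knockout, 1.71-fold apart. That was the smallest p among all member probe sets (2.99e-04 unadjusted, limma adjusted p = 0.0934), with the replicates of each group close together, and its difference lay between 0.73 and 0.82 whichever array was left out. This probe set was picked for its value.

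Hnrnpa1, a splicing repressor that counteracts SR proteins, differed between its probe sets. The brightest, of a type that the maker marks as prone to cross-hybridise, read 2925, 2151 and 2876 in wild type and 3665, 3328 and 3358 in knockout (log2 0.39, limma adjusted p = 0.259). Wild type replicate 2 was the lowest there, and without it the difference was 0.25, while against it alone it was 0.68. The second brightest had means of 2405 ± 206 and 2369 ± 269, with no separation, and a dim one was higher by 0.85 from a mean of 68.9 to 122.

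Hnrnpl, which binds CA-rich repeats, had the lowest difference of the members. It read 1651, 1965 and 1360 in wild type and 1300, 1061 and 1412 in knockout, with overlap (log2 −0.39, SE 0.16, limma adjusted p = 0.335), and −0.65 against wild type replicate 2 alone. Hnrnph3, of the G-tract binding group, had means of 1490 ± 91.2 and 1889 ± 294 (log2 0.33, limma adjusted p = 0.305), and 0.21 without knockout replicate 3. Hnrnpu, a nuclear scaffold protein that binds RNA and chromatin, was higher by 0.19 without overlap at its brightest probe set, but its other 4 ranged from −0.29 to 0.16, and the lowest of these had all knockout signals below wild type. The abundant Hnrnpc, at 13837 ± 408 and 13638 ± 367, and Hnrnpk, at 18334 ± 1368 and 19127 ± 2569, overlapped between the groups.

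Hnrnpdl, a close relative of Hnrnpd, was higher at 7 of 7 probe sets, by 0.070 to 0.33. One of them had separate groups, at 2016, 1477 and 1837 in wild type and 2106, 2261 and 2278 in knockout (log2 0.33, limma adjusted p = 0.310), and differed by 0.20 without wild type replicate 2, its lowest array, and by 0.58 against that array alone. Hnrnpa2b1, a relative of Hnrnpa1, was at 0.15 at its brightest probe set and at −0.070 to −0.21 at its 3 others, all with overlap. At their brightest probe sets Hnrnpa0 was at 0.20 and Hnrnpm at 0.16, and the 8 further genes (Hnrnpab, Hnrnpf, Hnrnph1, Hnrnph2, Hnrnpll, Hnrnpr, Hnrnpul1 and Hnrnpul2) lay between −0.067 and 0.12, each with overlapping groups.

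Of 40 member genes with at least 2 tested probe sets, 14 were higher at all of them, 3 were lower at all and 23 had both signs. Prpf38a, a splicing factor gene named here for its values, showed how far they could part. Its brightest probe set read 1689, 1333 and 1529 in wild type and 1462, 1411 and 1598 in knockout (log2 −0.021). The 2 dim ones read 65.8, 91.1 and 74.4 against 159.9, 142.9 and 179.4, and 65.1, 94.4 and 92.8 against 114.2, 169.8 and 135.5 (log2 1.07 and 0.73, limma adjusted p = 0.160 and 0.323). At these signals, near the lower limit of 59.7 for testing, a probe set can read mostly background. Positions of probe sets on the transcripts are not used here, so a different transcript form and an unspecific signal were not tested.

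**Figure D4:**
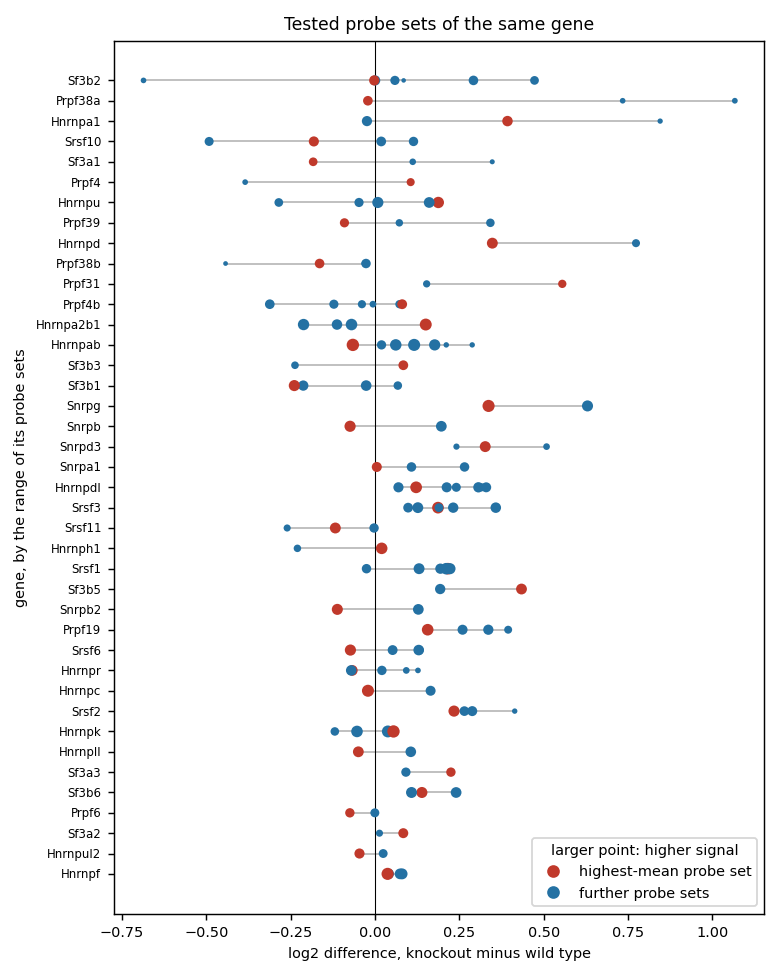
Log2 difference (knockout minus wild type, horizontal axis) of every tested probe set of the 40 member genes with at least 2, 1 gene per row ordered by the range of its probe sets; larger points have higher signal and red marks the brightest probe set. Sf3b2 (−0.69 to 0.47) and Prpf38a (−0.021 to 1.07) have the widest ranges, and the lowest point of the first and the highest of the second are small.

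Genes of the same machinery outside these families had median differences by list from −0.013 to 0.13. Of all genes 54.6% were higher, with a median of 0.029. Of the genes in these lists 0 passed the adjusted threshold with limma, where 0.0541% of all genes did. The shares of all genes at an unadjusted p under 0.05 were 9.14% higher and 7.36% lower. Of 50 tested genes of the core and minor spliceosome, 27 were higher and 23 lower (median 0.015), with 6 higher and 0 lower at an unadjusted p under 0.05. Snrnp25, of the minor spliceosome's U11/U12 particle, had means of 600 ± 104 and 1115 ± 278 (log2 0.87, limma adjusted p = 0.153) without overlap, and Ppil1, a cyclophilin of the spliceosome, was at 0.46 (limma adjusted p = 0.203). Of 13 genes of snRNP assembly and maturation, 11 were higher (median 0.13), with 1 higher and 0 lower at that level. These included Gemin2, the partner of SMN, at 393 ± 18.2 and 510 ± 40.5 (log2 0.37, limma adjusted p = 0.291), and Prmt5, which methylates Sm proteins, at 714 ± 49.9 and 864 ± 85.2 (log2 0.27, limma adjusted p = 0.383). Of 17 SR kinases and SR-like genes 12 were higher (median 0.071), with 0 in either direction at an unadjusted p under 0.05. The 2 of smallest p, Scaf11 and the SR kinase Clk3, were at 0.22 and 0.30. Of 29 other RNA-binding regulators 12 were higher and 17 lower (median −0.013), with 2 higher and 1 lower at that level. Rbfox2, a regulator that binds GCAUG, was at 365 ± 47.3 and 503 ± 25.5 and the cold-inducible Cirbp at 591 ± 183 and 926 ± 53.1.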

How the data were processed

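The authors deposited 1 intensity per probe set and array, on a linear scale. The submitters' processing notes name MAS5 (version: not given in the sources used here). Every array had the same mean after trimming 2% at each end (500), so no further normalization was applied. Log2 was taken without a pseudocount. Of the probe sets other than 64 controls, 34945 had 1 symbol, taken from the platform annotation and updated by gene ID to RefSeq (GRCm38.p6) for 34741. Probe sets with a mean log2 signal above the 40th percentile (59.7) were tested with limma 3.58.1 (two-sided; lmFit, then eBayes with trend by intensity) under R 4.3.3, and p was adjusted over all 27022 by Benjamini and Hochberg. The number of arrays limits precision.

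A gene is represented by its tested probe set of highest mean over the 6 arrays. Among others, the brightest probe sets of Snrpe, Sf3b5 and Srsf2 and the separated one of Hnrnpdl carry the suffix _s_at. The brightest of Sf3b2 and Prpf19 carry _x_at, the type marked as prone to cross-hybridise. The genes named were the 5 of smallest p in each family, the U2AF genes, Snrpb, Snrpc, Carm1, genes with opposite probe sets, and the 2 of smallest p in each pathway list. Others were chosen after their values were seen. Members and lists were chosen with earlier results of these data known. A matching gene is not reported here. On simulated data for this comparison (27022 probe sets, 10 runs), 11.8% of 1.5-fold, 41.8% of 2-fold and 82.2% of 4-fold changes were called. The changed probe sets were drawn at random from all tested ones. Members were brighter than most, so these rates do not describe the members. Figures were drawn with matplotlib 3.10.9. The alternatives were other normalizations, filters and variance settings, covariates, a replicate block, other ways to represent a gene, and each array left out.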

Additional observations from a re-analysis of the deposited data

How the results depend on the processing

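No member probe set passed the adjusted threshold with limma under any of the 16 alternatives. The count over all probe sets, 8, was 0 without an intensity trend, 40 with robust variance, 4 with sex as a term, 2 with bacterial control RNA as a term, and 0 to 13 when an array was left out. The replicate numbers do not pair the arrays (correlations of deviations −0.14, −0.38 and −0.0056, and 0 of 3 wild-type arrays closest to their own number), and with the replicate block 0 probe sets passed and the unadjusted count of lower members was 3. The unadjusted counts of 19 higher and 6 lower members were 12 and 3 without a trend, 11 higher after median centring, 2 lower with control RNA as a term, and 11 to 21 higher and 3 to 5 lower when an array was left out. The higher count was 11 without knockout replicate 3, the lower 3 without wild type replicate 3 or knockout replicate 1. The median over member genes was 0.027 after median centring and 0.033 to 0.088 when an array was left out, lowest without knockout replicate 3. Median centring moved the median of all genes from 0.029 to −0.027. Of 684 alternative values of 43 named probe sets 7 changed sign: Sf3b2 at its brightest probe set (0.018 after quantile normalization, −0.050 to 0.035 when an array was left out) and Prpf40b (−0.055 with control RNA as a term, −0.024 to 0.34 when an array was left out). Alternatives for counts by direction and for probe sets of 1 gene were chosen after seeing the data. Signals near the lower limit for testing resolve little.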

Other observations

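Member probe sets too dim to be tested had no consistent order. Snrpn, an imprinted paralogue of Snrpb, had a single member probe set. It read 12.2, 32.3 and 6.8 in wild type and 10.3, 24.4 and 6.7 in knockout. That of Srsf12 read 18.2, 35.9 and 29 against 21.4, 51.4 and 51.2. Probe sets with several symbols were not taken, and whether any of them reads Snrpn was not examined. The dim probe sets of Hnrnpd (9.3, 33.1 and 17.1 against 49.4, 45.7 and 61.3) and Hnrnpl (9.1, 1.9 and 7.5 against 74.9, 59.3 and 20.4) had all knockout signals above all wild-type signals, for Hnrnpl opposite to its bright probe set. These values are at the level of background and carry no test.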
